A study of Arabidopsis thaliana with 39 samples.

Results

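The comparison described here set OZ2 against OZ1, the adjoining parts of the oscillation zone of the Arabidopsis thaliana root tip, on 17 of the study's 39 arrays. The oscillation zone is the stretch of the growing root in which transcripts linked to auxin rise and fall with time and in which the sites of later lateral roots are set out. Cells leave the dividing tip, elongate, and then build root hairs, thickened walls and the barrier tissues of the mature root, so transcripts of dividing, elongating and differentiating cells are the usual landmarks of position along the root. Auxin, small secreted peptides and wall-modifying enzymes are known to take part in the first steps of lateral root formation.

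All samples of the series, OZ1 and OZ2 alike, came from ecotype Columbia plants labelled DR5-GUS, an auxin reporter line, aged 5 days and grown on standard media. There was no treatment and no second genotype, and by these labels OZ1 and OZ2 differ by the piece of root that was cut. The samples also carry a periodic order, 1 to 20 in OZ1 and 21 to 39 in OZ2, which was not used here. Technical differences between the regions are given below. The labels contradict each other on which piece is which: the description gives OZ1 as the lower and OZ2 as the upper part, and the tissue label of the same samples has them reversed. The regions are therefore called OZ1 and OZ2 only. According to the series text 39 individual roots were dissected, but the titles use 25 numbers, and 14 of them name an OZ1 as well as an OZ2 array. Each array carried biotin-labelled total RNA from 1 piece, and values are log2 of the deposited signal of the Affymetrix ATH1 chip.

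The arrays were chosen by their own values. Of the 22 arrays scanned on the earliest of 3 scan days (12 OZ1, 10 OZ2), 5 were left out because their profile lay nearer the other region, which left OZ1 numbers 1, 4, 9, 22, 23, 31, 32, 33 and 35 (9 arrays) and OZ2 numbers 1, 4, 6, 9, 10, 22, 23 and 35 (8 arrays). Each array was given a position between the mean profile of OZ1 (0) and that of OZ2 (1), taken over all 39 arrays. Among the kept arrays the values nearest the midpoint were 0.26 for OZ1-9 and 0.78 for OZ2-10. The arrays left out stood at 0.84 (OZ1-2), 0.75 (OZ1-6), 1.09 (OZ1-10), 0.29 (OZ2-32) and -0.35 (OZ2-38), so that each of the 5 went against its label. An axis built from the first scan day alone left out the same arrays, with OZ1-31 at 0.22 and OZ2-22 at 0.86 as the kept arrays nearest the midpoint. Because arrays that blurred the contrast were removed, every difference on the 17 kept arrays is given as a description without a test.

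**Figure D1:**
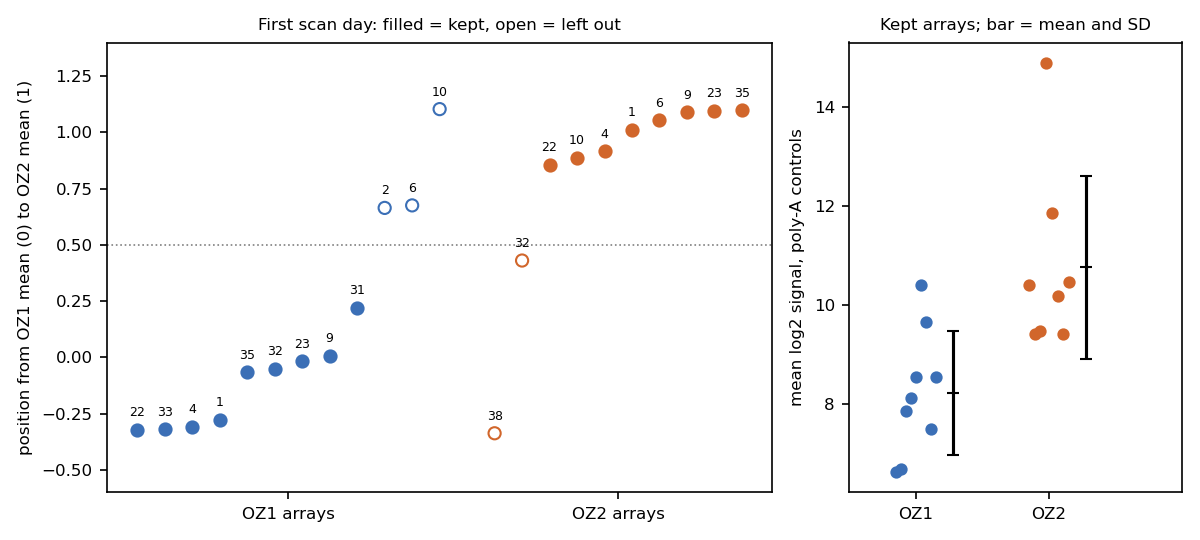
Left, position of the 22 arrays of the first scan day between the mean profiles of OZ1 (0) and OZ2 (1) of that day, with title numbers; open circles are the 5 arrays left out, which lie across the dotted midpoint from their own label. Right, mean log2 signal of the poly-A control probe sets on the 17 kept arrays, with mean and SD per region; OZ2 lies higher, at 10.76 against 8.22.

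Tests were taken from other array sets. The 17 arrays of the other scan days (8 OZ1 from one day, 9 OZ2 from another) were not themselves kept or left out by their values. They did enter the mean profiles of the axis over all 39 arrays, while the axis of the first day alone does not contain them and leaves out the same 5 arrays. Region, scan day and fluidics station cannot be told apart among them: OZ1 was on stations 1 and 2, OZ2 on stations 5 to 7. All 9 OZ2 arrays were read on scanner 1, and the OZ1 arrays were spread over scanners 1 to 5. All 22 arrays of the first day, with none left out, give a contrast within 1 scan day that shares the 17 kept arrays. "Rose" and "fell" below refer to limma's moderated test on the other scan days, from OZ1 to OZ2, at a Benjamini-Hochberg adjusted p under 0.05 over 13627 probe sets.

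Kept arrays differed in more than their region. The poly-A controls, bacterial transcripts added to the RNA before labelling, read a log2 signal of 8.22 ± 1.26 (SD, n = 9) on OZ1 and 10.76 ± 1.86 (SD, n = 8) on OZ2, a difference of 2.54, given without a test because the arrays were selected. Of the arrays left out, OZ1-6 and OZ1-10 read 11.02 and 11.90 and OZ2-38 read 8.75, while OZ1-2 read 8.42 and OZ2-32 read 10.33. The 3′ minus 5′ log2 signal of the actin control averaged 5.76 on the kept OZ1 and 4.56 on the kept OZ2 arrays. Fluidics stations 1 to 3 handled only OZ1 and stations 4 to 6 only OZ2 on that day, so station and region cannot be told apart; 1 scanner read both regions, OZ1-33, OZ1-35, OZ2-1 and OZ2-4. The hybridisation controls took 0.907% to 14.8% of the signal on the kept arrays. Their mean log2 signal was 12.11 ± 1.32 (SD) on OZ1 and 13.28 ± 1.32 (SD) on OZ2. They took no more than 5% of the signal on 8 of the 9 OZ1 and 5 of the 8 OZ2 arrays. The median signal of an array averaged 89.5 on OZ1 and 110.0 on OZ2. The share of these technical values in the differences below was not tested beyond the fits named with them.

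Among the kept arrays, OZ2 arrays were less alike than OZ1 arrays. The arrays were kept by their profiles, so the likeness within and between regions depends in part on that choice and is only described. Across tested probe sets the correlation between arrays had a median of 0.80 within OZ1 (0.56 to 0.91, 36 pairs), 0.66 within OZ2 (0.40 to 0.85, 28 pairs) and 0.54 between the regions (0.31 to 0.76, 72 pairs). These are correlations across probe sets, and probe sets are no replicates of each other. Over the 7526 named genes tested, with 1 probe set each, the median SD was 0.81 within OZ1 and 1.08 within OZ2.

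On the kept arrays all 8 OZ2 arrays lay above all 9 OZ1 arrays for 337 of 13627 tested probe sets (2.47%), and below all of them for 567 (4.16%). Among 7526 named genes the numbers were 163 higher (2.17%) and 317 lower (4.21%). A mean difference of at least 2-fold was found for 1276 named genes higher (17.0%) and 1394 lower (18.5%), and the median difference over all tested probe sets was -0.02. Of all tested probe sets 2361 were at least 2-fold higher (17.3%) and 2456 lower (18.0%); after quantile normalization these were 1937 and 3042, with the median at -0.20. The genes higher in OZ2 had the larger differences, with a median of 3.25 against -2.23 for those lower. In the region where each kind was low the median level was log2 6.49 for the higher genes (OZ1) and 8.48 for the lower genes (OZ2), and where each was high it was 9.56 and 10.68, beside an OZ1 median of 7.25 over all named genes. For 64 of the 163 the OZ1 mean was below the level that the filter used (log2 5.69), and for 21 of the 317 the OZ2 mean was, so a fold change of those genes rests on signal near background. In pieces of whole root, fewer cells of a type and less RNA per cell cannot be told apart.

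Nearly all genes without overlap had the same sign on the arrays of the other scan days. On the other scan days 926 named genes rose (12.3%) and 1067 fell (14.2%). Of the 163 higher genes 162 had the same sign there and 138 rose (84.7%), and of the 317 lower genes 316 had the same sign and 246 fell (77.6%). No gene of either kind passed the test in the opposite direction. The filter was not independent of this comparison, because it used the mean over all arrays of the series, those of the other days included. Of the 163 higher genes 64, and of the 317 lower genes 21, were below the filter level in their low region on the kept arrays. They passed through signal elsewhere, and how far this fixed their agreement was not tested. The differences were smaller on the other days, with medians of 2.47 and -1.50. These genes were chosen by their values on the kept arrays, so part of that drop follows from the choice. Counted by probe set, 3670 passed there (26.9%), beside 801 (5.88%) on the 22 arrays of the first day. On all 22 arrays of the first day limma called 168 named genes higher (2.23%) and 256 lower (3.4%), among them 77 of the 163 and 151 of the 317; these share arrays with the choice of genes and do not support it. Both tests called 119 named genes higher (1.58%) and 158 lower (2.1%). Between the 2 kept OZ1 and 2 kept OZ2 arrays of the shared scanner, all 480 genes had the same sign, again on arrays that chose them.

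**Figure D2:**
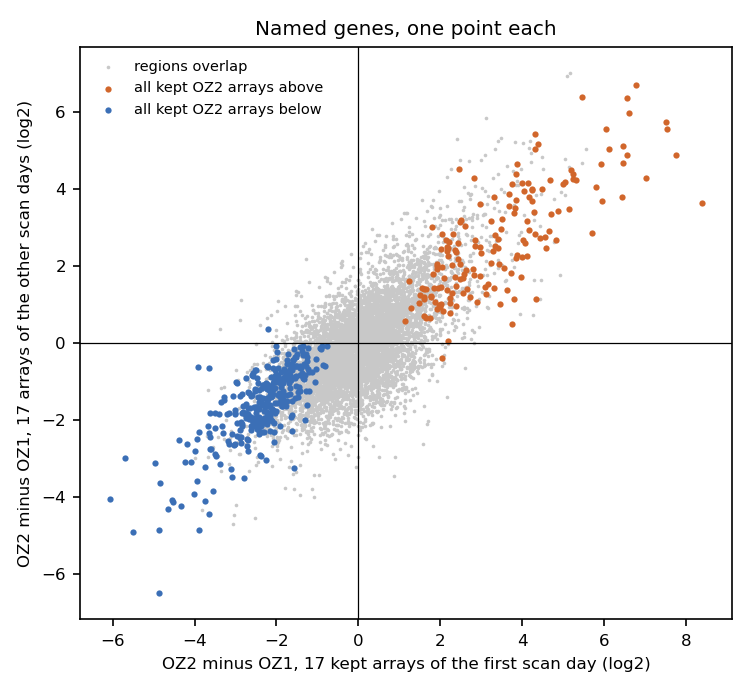
Each point is a named gene, with the OZ2 minus OZ1 difference on the 17 kept arrays (x, log2) and on the 17 arrays of the other scan days (y, log2); orange and blue mark the 163 and 317 genes whose kept arrays did not overlap. Of these, 162 and 316 lie on the same side of 0 on both axes.

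The difference between the first day (22 arrays) and the other days was also tested. No probe set passed (0.0% of 13627 in limma's interaction term, with 1750 at an unadjusted p under 0.05), so no gene below is given as particular to either array set.

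The largest rises carried mostly genes that the reference annotation knows only by locus. The single largest was AT2G21100, which read 2.35 to 7.23 on OZ1 (median 2.85) and 10.06 to 14.45 on OZ2 (median 12.45). No OZ2 array came within 2.83 log2 units of an OZ1 array. Its mean difference was 8.40, and on the other days it rose by 3.62 ± 0.46 (SE, limma adjusted p = 4.53e-06). The OZ1 arrays of the other days averaged 7.03, against 3.89 on the kept ones. That made it 1 of the 4 genes whose differences in the 2 array sets lay furthest apart.

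Metallothionein MT1C, a small cysteine-rich metal-binding protein, had the largest difference among genes with a symbol and no overlap. Its OZ1 arrays read 2.40 to 8.71 (median 6.98) and its OZ2 arrays 11.23 to 15.36 (median 13.76). The means, 5.99 ± 2.12 (SD, n = 9) and 13.73 ± 1.35 (SD, n = 8), differ by 7.75, a 215-fold difference of geometric means. The regions do not overlap, although the OZ1 arrays are themselves widely spread. MT1C rose on the other days by 4.89 ± 0.76 (SE, adjusted p = 4.5e-05), and the 5 arrays left out read 10.33, 12.51 and 14.26 for OZ1-2, OZ1-6 and OZ1-10, and 10.73 and 5.83 for OZ2-32 and OZ2-38. In MT1C as on the axis, 3 OZ1 arrays were thus above every kept OZ1 array and 2 OZ2 arrays below every kept OZ2 array. MT1C is itself part of the axis that left these arrays out, so its values are no separate evidence. The same holds for values of the arrays left out in the genes below.

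A class III peroxidase, AT5G66390 (PRX72), one of the wall enzymes that oxidise lignin precursors, was the ninth largest rise. It read 2.72 to 6.63 on OZ1 (median 5.44) and 9.67 to 13.67 on OZ2 (median 11.65). It rose on the other days by 6.36 ± 0.81 (SE, adjusted p = 4.39e-06); the kept arrays differed by 6.56. AT3G18170, another locus without a symbol, differed by 6.77 on the kept arrays and rose by 6.69 on the other days. Both genes read below the filter level in OZ1 in either array set, so the sizes of these differences rest on signal near background. One of its OZ2 arrays, OZ2-10, read 7.10 while the nearest of the others read 9.86.

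The other 10 of the 14 largest rises were AT4G13580, AT4G02090, AT3G53980, AT3G18280, AT1G30750, AT4G33666, AT4G17215, AT5G65530, AT4G33730 and AT4G26010, with differences of 6.03 (AT4G26010) to 7.52 (AT4G13580). All 14 rose on the other days, by 3.62 (AT2G21100) to 6.69 (AT3G18170), and all 14 were called on the 22 arrays of the first day, with adjusted p of 0.00725 to 0.0332. For 12 of the 14, all but MT1C and AT3G18280, the OZ1 mean was below the filter level. OZ1-10 lay within the range of the kept OZ2 arrays for each of AT4G13580 (14.27), AT4G02090 (12.12) and AT3G18280 (14.35).

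Among the falls the widest gap belonged to AT5G51490. Its 9 OZ1 arrays lay close together, at 9.25 to 10.15 (median 9.44), and its 8 OZ2 arrays read 2.45 to 4.56 (median 3.61). The gap between the regions was 4.69, and the mean difference was -6.06. On the other days it fell by 4.05 on the log2 scale (SE 0.83, adjusted p = 0.000789). All 3 OZ1 arrays left out read below every kept OZ1 array, at 5.49, 5.09 and 5.45, and OZ2-38 read within the kept OZ1 range, at 9.97. The fifth, OZ2-32, read 4.76, just above the kept OZ2 range.

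The gene next to it on the chromosome, AT5G51500, also lay among the 14 largest falls. It read 9.67 to 11.33 on OZ1 (median 10.80) and 2.20 to 8.99 on OZ2 (median 6.57). A second neighbouring pair, AT5G62330 and AT5G62340, had differences of -4.65 and -4.86. Probe sets of neighbouring related genes can bind the same transcript, and probe sequences were not used here. Of 2245 adjacent tested gene pairs (order of the TAIR10.1 annotation), 14 had both members without overlap, 11 of them in the same direction; 28 of 326 tested neighbours of genes without overlap were themselves without overlap (8.59%), beside 6.38% of all named genes tested.

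AT5G12940 fell from a narrow OZ1 range as well. Its OZ1 arrays read 11.03 to 12.69 (median 12.02) and its OZ2 arrays 3.65 to 8.36 (median 5.94), a mean difference of -5.69. The fall on the other days was 2.98 on the log2 scale (SE 0.39, adjusted p = 5.28e-06). The other large falls were AT1G73620, AT1G54890, AT5G50740, PDF2.5, AT2G20515, AT1G32190, AT2G43610, AT5G10130 and AT5G59070, at -5.50 (AT1G73620) to -4.19 (AT5G59070). All 14 fell on the other days. On the 22 arrays of the first day 7 of them (AT1G73620, AT5G50740, AT5G62340, AT2G20515, AT1G32190, AT5G51500 and AT5G59070) did not pass, with adjusted p of 0.057 to 0.172. Among the arrays left out, OZ1-2 read 3.04 for AT5G50740 and 2.39 for AT1G32190, and OZ2-38 read 10.64 and 8.75.

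Only 1025 of the tested genes carry a symbol in the annotation, and 31 of them were higher without overlap (3.02%) and 29 lower (2.83%), beside 2.17% and 4.21% of all named genes. Of the 31, 28 rose on the other days, and of the 29, 19 fell. On the 22 arrays of the first day 13 and 16 were called, and 11 and 12 in both sets. Giving these 60 genes a closer description was decided after their values had been seen.

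**Figure D3:**
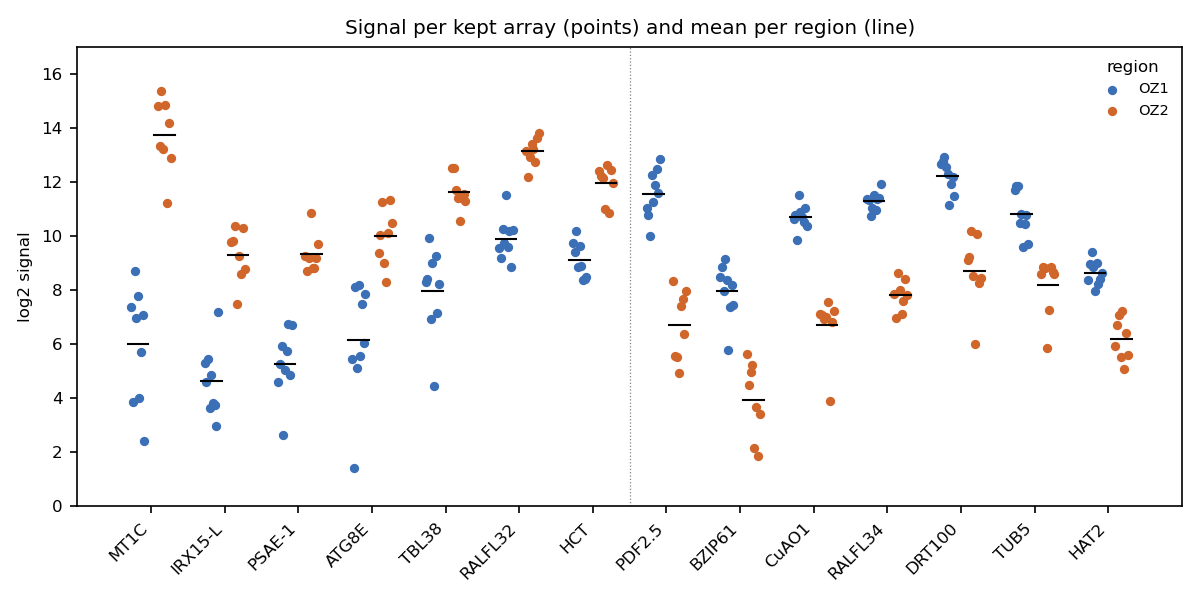
Log2 signal (y) of 14 genes with a symbol on each kept array, OZ1 blue and OZ2 orange, with the mean of each region as a line; the 7 genes left of the dotted line were higher and the 7 right of it lower in OZ2 without overlap. In MT1C the means are 5.99 and 13.73, and in PDF2.5 they are 11.57 and 6.72.

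A xylan gene and a lignin gene were among the higher genes with a symbol. IRX15-L, required with its homologue for normal xylan of secondary walls, read 2.95 to 7.19 on OZ1 (median 4.61) and 7.48 to 10.37 on OZ2 (median 9.53). The regions are separated by only 0.30, between the highest OZ1 and the lowest OZ2 array, although the means differ by 4.68, and the OZ1 mean, 4.62, is below the filter level. It rose by 4.23 ± 0.71 (SE, adjusted p = 0.000107) on the other days and by 2.90 on the 22 arrays (adjusted p = 0.0483). HCT, the hydroxycinnamoyl transferase of lignin monomer synthesis, read 8.37 to 10.17 on OZ1 and 10.86 to 12.64 on OZ2, and rose by 2.52 ± 0.37 (SE, adjusted p = 2.36e-05) on the other days. It was not called on the 22 arrays (adjusted p = 0.079).

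The TRICHOME BIREFRINGENCE-LIKE family, whose studied members O-acetylate wall polysaccharides, contributed genes in both directions. TBL38 was higher by 3.67, with 4.47 to 9.92 on OZ1 and 10.54 to 12.52 on OZ2. TBL30 was higher by 2.16, and both rose on the other days, by 3.86 and 2.40 (adjusted p = 2.15e-05 and 1.9e-05). TBL39 was lower, with 12.12 to 13.10 on OZ1 and 7.27 to 11.09 on OZ2, a difference of -2.48, and TBL35 was lower by a difference of -1.06. TBL35 fell on the other days (adjusted p = 0.0101) and TBL39 did not pass there (-0.92, adjusted p = 0.0605), while on the 22 arrays TBL39 was called (adjusted p = 0.0201) and TBL38, TBL30 and TBL35 were not (adjusted p = 0.11, 0.228 and 0.14). The family members that changed thus did not move one way.

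GSO1, a receptor kinase needed for a closed Casparian strip, the lignin band of the endodermis, read 6.53 to 8.70 on OZ1 (median 7.79) and 9.51 to 11.41 on OZ2 (median 10.45). It rose by 2.66 ± 0.31 (SE, adjusted p = 1.81e-06) on the other days; the 22 arrays gave 1.53 (adjusted p = 0.097). The receptor-like kinase B120 was higher by 4.24 and rose by 4.00 (adjusted p = 0.000113). Its OZ1 mean, 4.97, is below the filter level, and it was not called on the 22 arrays (adjusted p = 0.117). Other markers of the endodermis, xylem and phloem had no probe set that could be named here and were not analysed.

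Of 7 tested genes in the list of cellulose synthase-like and xylan genes, 3 rose and none fell on the other days, beside 12.3% and 14.2% of all named genes. The 3 were IRX15-L, CSLC12 (1.86, adjusted p = 5.06e-05) and CSLD2 (1.27, adjusted p = 0.0259). The list's median on the kept arrays was -0.17, against -0.03 over all named genes tested. CSLA03 had a difference of -1.76 on the kept arrays and 0.18 on the other days, where it did not pass (adjusted p = 0.726).

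Expansins had differences in both directions. Of 13 tested expansins, the proteins that loosen growing walls, 5 rose and 2 fell on the other days, and the median on the kept arrays was -0.27. Over all named genes 12.3% rose and 14.2% fell, so the expansins that fell were near that share. EXLA1 was the only expansin without overlap, with 6.90 to 8.83 on OZ1 and 9.71 to 12.29 on OZ2, and it rose by 2.34 ± 0.55 (SE, adjusted p = 0.00274). EXPA9 fell by 2.04 on the log2 scale on the other days (adjusted p = 0.00482). Among 7 xyloglucan endotransglucosylases, which cut and rejoin wall xyloglucan, 5 rose and 1 fell (12.3% and 14.2% over all named genes), the medians were 1.21 on the kept arrays and 2.34 on the other days, and none was without overlap. XTH32 had a difference of 3.44 and rose by 3.42 ± 0.61 (SE, adjusted p = 0.000211). XTH19 went the other way on the kept arrays, at -2.88, and read 0.60 on the other days (adjusted p = 0.329); its 8 OZ2 arrays spread from 2.24 to 10.02.

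PMEPCRF, a pectin methylesterase that trims pectin in the wall, was higher by 3.49 with overlap and rose by 3.99 ± 0.63 (SE) on the other days. Of 2 tested genes of that list 1 rose, beside 12.3% of all named genes. The list held only 4 genes on the chip. The large falls AT5G51490, AT5G51500, AT5G62330 and AT5G62340 were not on it, so it gives no direction for pectin methylesterases and their inhibitors as a family. In the pair of listed peroxidases Prx37 rose by 1.26 (adjusted p = 0.000561) and PRXR1 did not pass (-0.18, adjusted p = 0.767). HRGP1, an extensin-type structural wall protein, was 1 of 2 listed genes and rose by 3.02 ± 0.35 (SE), with 8.50 to 10.23 on OZ1 and 9.70 to 14.29 on OZ2; its probe set is one that Affymetrix marks as able to bind several transcripts.

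Root hair genes were higher in OZ2 on most arrays and not on all. EXPA7 and EXPA18, expansins of hair-forming epidermal cells, had differences of 4.02 and 5.56 and yet overlapped. EXPA18 read 4.86 to 9.45 on OZ1 (median 5.86) and 7.62 to 13.16 on OZ2 (median 12.18). The overlap lay with 2 arrays: OZ1-9 read 9.45 where the next OZ1 array read 7.16, and OZ2-10 read 7.62 where the next OZ2 array read 11.76. EXPA7 had the same pair at its edges, OZ1-9 at 10.40 and OZ2-10 at 7.23. These are also the kept arrays nearest the midpoint of the axis over all 39 arrays. On the other days EXPA7 rose by 5.20 ± 0.60 (SE, adjusted p = 1.39e-06) and EXPA18 by 5.04 ± 0.63 (SE, adjusted p = 3.44e-06). EXPA18 was called on the 22 arrays of the first day (3.65, adjusted p = 0.0166) and EXPA7 was not (2.09, adjusted p = 0.177). All 3 listed root hair genes rose on the other days (12.3% over all named genes). SCN1 was among them (1.02, adjusted p = 0.00701) although its kept arrays differed by -0.02.

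Secreted peptides moved in opposite directions within the RALF family, small secreted peptides that act through receptor kinases at the wall. RALFL34, known to take part in the formative divisions of lateral root initiation, was lower in OZ2: its OZ1 arrays read 10.76 to 11.95 (median 11.36) and its OZ2 arrays 6.96 to 8.64 (median 7.84). The gap of 2.12 was one of the widest among genes with a symbol. RALFL34 fell by 2.22 on the log2 scale (SE 0.38, adjusted p = 0.000133) on the other days and was called on the 22 arrays too (-2.21, adjusted p = 0.0157). RALFL32 was higher, with 8.86 to 11.51 on OZ1 and 12.19 to 13.82 on OZ2, and rose by 3.18 ± 0.45 (SE, adjusted p = 1.58e-05).

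Plant defensins, small cysteine-rich peptides best known from defence, were likewise split. PDF2.5 had the most negative difference among genes with a symbol and no overlap, from 10.01 to 12.85 on OZ1 (median 11.58) to 4.93 to 8.33 on OZ2 (median 6.88). It fell by 3.65 on the log2 scale (SE 0.51, adjusted p = 1.28e-05). LCR69 (PDF2.2) and LCR68 (PDF2.3) were higher by 3.40 and 2.05, and both rose on the other days, by 2.70 (adjusted p = 0.000674) and 2.82 (adjusted p = 0.000508). Neither LCR69 nor LCR68 was called on the 22 arrays (adjusted p = 0.0615 and 0.218). LCR68 was the brightest of these in OZ2, at 13.64 to 15.43, though levels of different probe sets cannot be ranked as transcript amounts.

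Genes of auxin response were few on the list that could be tested, 5 of 13 on the chip. HAT2, an auxin-induced homeodomain-leucine zipper gene, was the only one without overlap, with 7.97 to 9.40 on OZ1 (median 8.63) and 5.08 to 7.24 on OZ2 (median 6.16). It fell by 1.03 on the log2 scale (SE 0.31, adjusted p = 0.0154) on the other days and was lower on the 22 arrays as well (-1.96, adjusted p = 0.00829). GH3.17, an enzyme that couples auxin to amino acids, also fell (-1.51, adjusted p = 0.0164), with overlap on the kept arrays. WAG2, a kinase that acts on auxin transporters, rose on the other days (1.23, adjusted p = 0.0138) but differed by -0.39 on the kept arrays. The list's median on the kept arrays was -0.39.

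For lateral root initiation, 3 of 5 listed genes were tested. LBD16, a transcription factor that acts in the founder cells of lateral roots, read 1.22 to 7.82 on OZ1 (median 5.78) and 3.61 to 9.35 on OZ2 (median 7.38). The difference of 1.98 was within the spread of the arrays, and neither test passed (adjusted p = 0.104 on the other days and 0.245 on the 22 arrays). PUCHI, which restrains cell division in the flanks of the young primordium, differed by 0.32 on the kept arrays and fell on the other days (-1.44, adjusted p = 0.0472). RALFL34, described above, was the remaining member.

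Tubulins and histones had mostly negative differences. Of 7 tested tubulins, the building blocks of microtubules, 6 had differences below 0, 4 fell on the other days and none rose. Over all 7526 named genes 3848 had differences below 0, 14.2% fell and 12.3% rose. TUB5 was the one without overlap: OZ1 read 9.59 to 11.84 (median 10.78) and OZ2 5.85 to 8.86 (median 8.63), and it fell by 1.39 on the log2 scale (SE 0.31, adjusted p = 0.00155). TUB1 had a difference of -2.67 with overlap and fell by 1.00 on the log2 scale there (adjusted p = 0.0416). On the 22 arrays 4 tubulins were lower (TUA6, TUB1, TUB5 and TUB7), beside 3.4% of all named genes, and 3 of the 4 fell on the other days too. SP1L3, a small microtubule-associated protein of the SPIRAL1 family, read 11.24 to 12.36 on OZ1 and 7.09 to 10.67 on OZ2 and fell by 1.12 on the log2 scale (adjusted p = 0.00438). Related tubulins can bind each other's probes.

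All 5 tested histone genes had differences below 0, with a median of -1.57, and 4 fell on the other days (14.2% over all named genes). HTB2 read 8.76 to 9.65 on OZ1 (median 9.17) and 5.80 to 8.85 on OZ2 (median 7.81), overlapping at one edge. It fell by 3.80 on the log2 scale (SE 0.68, adjusted p = 0.000211). HTB4 fell by 2.26 on the log2 scale (SE 0.37, adjusted p = 8.56e-05). No histone gene was called on the 22 arrays (adjusted p = 0.0852 for HTB4 and 0.094 for HTB2). Histone H2B genes are close in sequence, and their probe sets may share transcripts.

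Few genes of cell division and DNA replication could be tested. BUB3.1, a spindle checkpoint protein, fell on the other days by 1.77 on the log2 scale (adjusted p = 0.0056), and PRL, which belongs to the MCM helicase of replication forks, by 1.13 (adjusted p = 0.0102). AUR1, a mitotic kinase, differed by -1.24 on the kept arrays, and did not pass (adjusted p = 0.0695). AUR2, a related mitotic kinase, differed by 1.14 on the kept arrays and by -1.30 on the other days, where it did not pass either (adjusted p = 0.0779). None of these 4 was without overlap: AUR1, for instance, read 5.54 to 8.98 on OZ1 and 4.88 to 8.39 on OZ2. Of 3 tested cell division genes 1 fell, and of 2 replication genes 1 fell, beside 14.2% of all named genes.

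Autophagy genes of the ATG8 family, ubiquitin-like proteins that are anchored in the growing autophagosome membrane, had a positive difference in 8 of 9 listed genes, and 7 rose on the other days (12.3% over all named genes). ATG8E read 1.41 to 8.21 on OZ1 (median 6.06) and 8.30 to 11.33 on OZ2 (median 10.07), a gap of only 0.09. It rose by 4.38 ± 0.53 (SE, adjusted p = 2.38e-06). ATG8D was the other without overlap, with 6.89 to 8.37 and 8.76 to 9.88, and it rose by 1.39 ± 0.28 (SE, adjusted p = 0.000739). ATG8F was the only listed gene called on the 22 arrays (1.93 on the kept arrays, adjusted p = 0.0445). ATG3, the enzyme that conjugates ATG8 to lipid, differed by -0.47 and did not pass (adjusted p = 0.566).

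Photosynthesis genes of the nucleus, listed as markers of green tissue that a root piece should hold little of, were higher in OZ2 throughout. All 7 tested genes were at least 2-fold higher on the kept arrays, with a median of 2.43, and 3 of them without overlap, beside 17.0% and 2.17% of all named genes. Their summed signal was 367 to 813 on OZ1 and 2466.5 to 5392 on OZ2. PSAE-1, a subunit of photosystem I, read 2.64 to 6.74 on OZ1 (median 5.27) and 8.71 to 10.85 on OZ2 (median 9.20), and LHCB4.1, a light-harvesting protein of photosystem II, read 2.20 to 6.94 and 7.51 to 8.39. On the other days only 2 of the 7 passed, PSAE-1 (3.94 ± 0.60 SE, adjusted p = 3.57e-05) and PSBY (1.17, adjusted p = 0.0188), and the list's median was 0.95. PSAE-1 and PSBW were called on the 22 arrays. PSAE-1 and LHCB4.1, for instance, had OZ1 means of 5.28 and 4.28, below the filter level, and passed the filter through their OZ2 signal. That such tested genes were higher in OZ2 was thus in part fixed by the filter. With no filter, 5100 of all probe sets were at least 2-fold higher and 2807 lower in OZ2, with a median difference of 0.23. Signal at these levels was not matched to detection calls, and the part of green tissue or of the array measures in it was not tested.

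**Figure D4:**
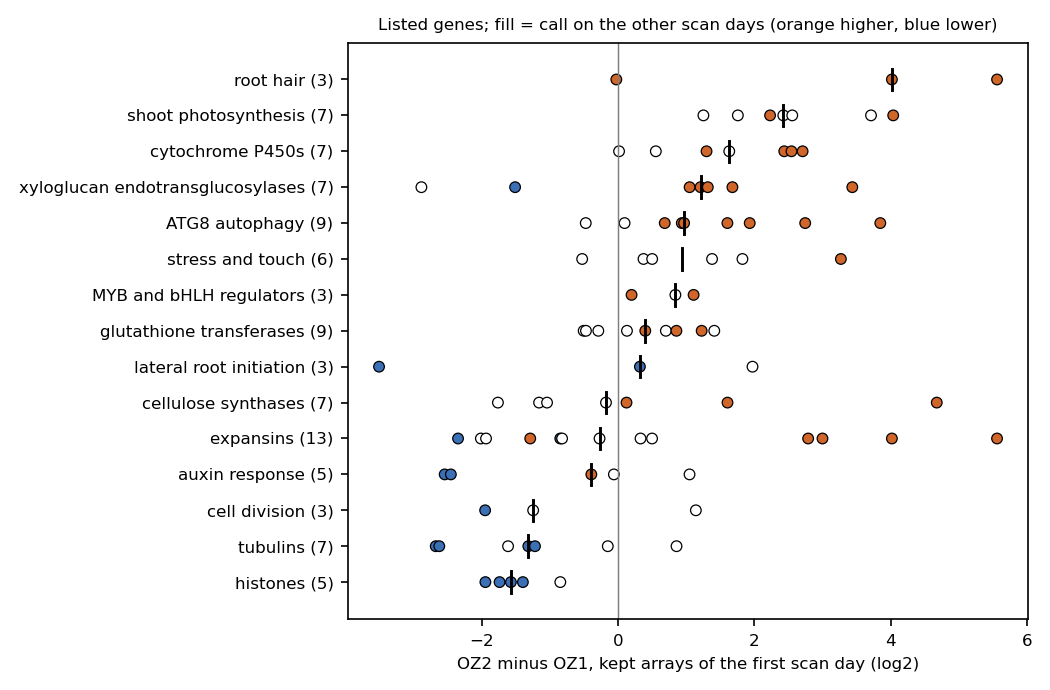
OZ2 minus OZ1 on the kept arrays (x, log2) for each tested gene of the lists with at least 3 tested genes (number in brackets), with the list's median as a bar; fill gives the call on the other scan days, orange rose, blue fell, white not passed. The photosynthesis, cytochrome P450 and MYB and bHLH lists lie wholly above 0 and the histones wholly below it. Some photosynthesis and P450 genes passed the filter through their OZ2 signal, which in part fixes their side.

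Metal and nutrient genes other than MT1C were few. ZIP6 and ZIP9, of the family of zinc and iron transporters, differed by 2.25 and 2.09 on the kept arrays. ZIP6 read 4.75 to 6.91 on OZ1 and 7.19 to 9.47 on OZ2 without overlap. It was called on the 22 arrays (1.70, adjusted p = 0.0261), but on the other days neither passed (0.77 for ZIP6, adjusted p = 0.464, and -0.32 for ZIP9, adjusted p = 0.644). ZIP6 was 1 of the 3 higher genes with a symbol that did not rise there, with GPDHC1, a cytosolic glycerol-3-phosphate dehydrogenase (1.03, adjusted p = 0.302), and LHCB4.1 (1.82, adjusted p = 0.0743).

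Enzymes of secondary metabolism and detoxification had mostly positive differences. All 7 tested cytochrome P450 genes had positive differences, median 1.63, beside 3678 of 7526 named genes. Of 22 listed P450 genes on the chip only these 7 passed the filter. Some, such as CYP71B29 and CYP71B28, had an OZ1 mean below its level, so the shared sign was in part fixed by the filter. On the other days 4 rose (12.3% over all named genes), CYP71B29 the most (3.46 ± 0.61 SE, adjusted p = 0.000193). Of 9 glutathione transferases 3 rose, beside the same 12.3%, GSTU28 by 3.00 ± 0.42 (SE, adjusted p = 1.51e-05). None of either list was without overlap on the kept arrays or called on the 22 arrays. Within OZ2, OZ2-10 read 4.20 for GSTU28 and 3.65 for CYP71B29, each below the other 7.

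Among stress genes COR47, a dehydrin induced by cold and drought, was the 1 of 6 listed genes to rise, a share near the 12.3% of all named genes (3.15 ± 0.55 SE, adjusted p = 0.00017); it read 9.61 to 11.75 on OZ1 and 10.47 to 14.71 on OZ2. TIL, a lipocalin induced by temperature stress, was higher without overlap by 2.63 and rose by 1.88 ± 0.34 (SE, adjusted p = 0.000215). DI21, named for its induction by drought, went the other way, from 10.05 to 13.77 on OZ1 to 8.59 to 9.88 on OZ2, and fell by 2.62 on the log2 scale (adjusted p = 0.00281). TIL and DI21 were not called on the 22 arrays (adjusted p = 0.100 and 0.097). Of 3 listed bHLH and MYB regulators 2 rose, bHLH104, which acts in the iron response (1.07, adjusted p = 0.0153), and bHLH115 (0.84, adjusted p = 0.0214), and bHLH34 did not pass (adjusted p = 0.458).

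Several enzymes and membrane proteins were also higher in OZ2 without overlap. UGT87A2, a glycosyltransferase, read 6.31 to 7.37 on OZ1 and 8.40 to 12.13 on OZ2. It rose by 1.44 ± 0.43 (SE, adjusted p = 0.0153) and was called on the 22 arrays (adjusted p = 0.0216). The serine carboxypeptidase-like genes scpl48 and SCPL45 were higher by 3.34 and 1.23 and rose by 2.80 (adjusted p = 0.000972) and 1.60 (adjusted p = 0.000605). On the 22 arrays scpl48 was called (adjusted p = 0.0285) and SCPL45 was not (adjusted p = 0.275). TET8, a tetraspanin of extracellular vesicles, read 8.23 to 9.12 on OZ1 and 9.31 to 11.80 on OZ2 and rose by 2.05 ± 0.30 (SE, adjusted p = 2.26e-05). PLIM2b, which bundles actin filaments, rose by 1.45 (adjusted p = 0.000605), and APS4, an ATP sulfurylase of sulfate assimilation, by 1.43 (adjusted p = 0.00227). PLIM2b was called on the 22 arrays (adjusted p = 0.0115), and TET8 and APS4 were not (adjusted p = 0.14 and 0.142).

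The lower genes with a symbol included several regulators and enzymes. BZIP61, a bZIP transcription factor, read 5.80 to 9.14 on OZ1 (median 8.18) and 1.87 to 5.64 on OZ2 (median 4.09) and fell by 3.93 on the log2 scale (SE 0.73, adjusted p = 0.000314). Its OZ2 mean is below the filter level, and it was not called on the 22 arrays (adjusted p = 0.0574). CuAO1, a copper amine oxidase that breaks down polyamines, read 9.85 to 11.52 on OZ1 and 3.90 to 7.58 on OZ2, a gap of 2.27, the widest among the lower genes with a symbol, and fell by 2.80 on the log2 scale (adjusted p = 2.91e-05). ATMYC1, a bHLH factor of epidermal patterning, differed by -3.50 and fell by 2.89 on the log2 scale (adjusted p = 0.0022). DRT100, a leucine-rich repeat protein, read 11.17 to 12.92 on OZ1 and 5.99 to 10.19 on OZ2, and fell by 1.81 on the log2 scale (adjusted p = 0.00733).

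CRT1b, a calreticulin that folds proteins in the endoplasmic reticulum, read 11.48 to 12.86 on OZ1 (median 12.17) and 8.94 to 10.42 on OZ2 (median 10.20). It fell by 1.93 on the log2 scale (SE 0.24, adjusted p = 3.98e-06) and was also called on the 22 arrays (adjusted p = 0.00725). CPI1, the cyclopropylsterol isomerase of sterol synthesis, fell by 2.60 on the log2 scale, ACLB-1, a subunit of ATP-citrate lyase, by 2.15, and PGY1, a cytosolic ribosomal protein, by 1.14, with adjusted p of 0.000641, 0.00485 and 0.000628. LSM6A, an RNA-binding protein of the Sm-like family, fell by 1.65 (adjusted p = 0.00035), while its relative LSM1B did not pass (-0.54, adjusted p = 0.3). PGY1 and LSM6A were not called on the 22 arrays (adjusted p = 0.0648 and 0.192). BIM1, a bHLH partner in brassinosteroid signalling, was lower without overlap by a difference of -2.21 and called on the 22 arrays (adjusted p = 0.0119), and did not pass on the other days (-0.63, adjusted p = 0.147). The same held there for 9 further lower genes, BGLU25, AtSec20, EMB2786, PHOS32, LSM1B, ASPGA1, DJ1D, ty2 and TBL39, whose fitted differences were nevertheless negative.

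**Figure D5:**
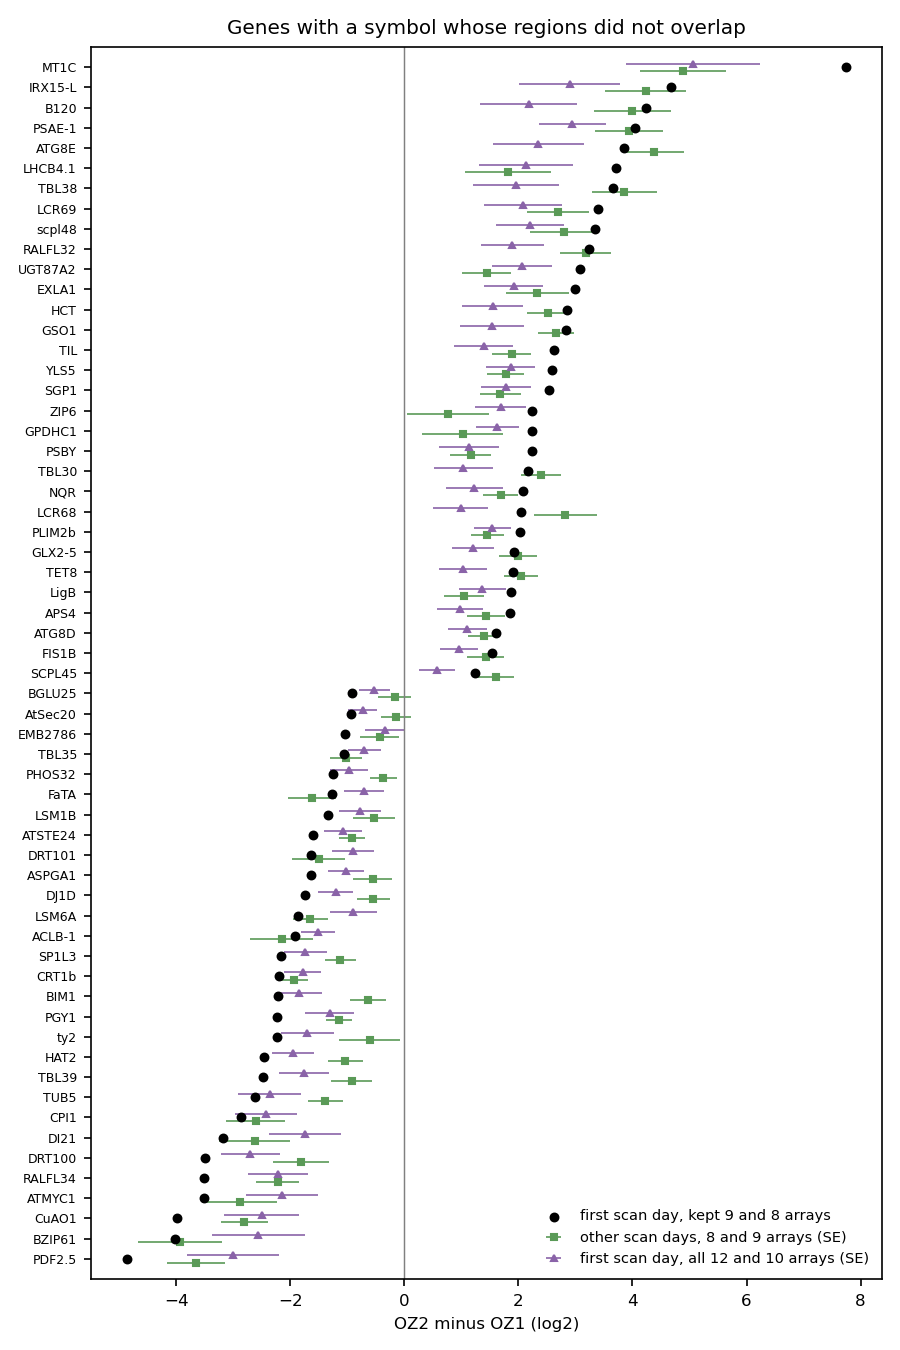
OZ2 minus OZ1 (x, log2) of the 60 genes with a symbol whose kept arrays did not overlap: black points, 17 kept arrays; squares, other scan days with SE; triangles, all 22 arrays of the first day with SE. For every one of the 60 both tested values lie on the same side of 0 as the black point, with MT1C at the top (7.75) and PDF2.5 at the bottom (-4.85).

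Some genes differed between the array sets in sign. AT3G51720 had a difference of 0.87 on the kept arrays and fell by 3.47 on the log2 scale on the other days (SE 0.75, adjusted p = 0.00122). The pseudogene AT2G04970 gave 1.58 and -2.63 (adjusted p = 0.00352). AT1G61840 gave -2.85 and 1.10, the latter not past the test (adjusted p = 0.174). All 3 overlapped on the kept arrays, and the interaction term did not pass for any of them.

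The result within the first day depended on technical terms. With the poly-A controls as a term limma called 0 probe sets on the 22 arrays (1677 at an unadjusted p under 0.05, against 3140 without the term), and with the scanner as a block also 0 (2091 at an unadjusted p under 0.05). In the latter fit the contrast rests on the 2 OZ1 and 2 OZ2 arrays that shared a scanner. On the other days the poly-A term left 1605 probe sets higher and 1704 lower, beside 1773 (13.0%) and 1897 (13.9%) without it. The poly-A controls there read a log2 signal of 10.09 on OZ1-3 and 10.49, 10.81 and 10.75 on OZ2-36, OZ2-39 and OZ2-40. The remaining arrays of those days read 3.28 (OZ2-21) to 5.32 (OZ2-19). The term there mainly set the arrays of high signal apart, so it cannot show how the poly-A difference of the first day acts. On the 22 arrays without such terms limma called 315 probe sets higher (2.31%) and 486 lower (3.57%).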

How the data were processed

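RNA was profiled on 39 ATH1 arrays of 22810 probe sets. The deposited values are signal intensity values made by the authors with MAS5, per the submitters' processing notes (version not given in the sources used here). Kept arrays had trimmed means of 249.8 to 249.9, so each was scaled to 1 target before deposit, which also scales background. The instrument records (unit other) deposited with the arrays gave scan day, scanner and station. No array build is named, so TAIR10.1 gave only names and neighbours. A single gene is annotated for 13513 probe sets (13436 matched by Entrez number), more than one for 503 and none for 8794, which stay unnamed here. After 64 controls, probe sets with a mean log2 over 39 arrays above the 40th percentile (log2 5.69, signal 51.8) were tested, 13627 in all. A gene took its probe set of highest mean (33 genes had 2, with the same sign in 21). No detection calls were used, and the number of arrays limits the precision.

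Two-sided fits used R 4.3.3 and limma 3.58.1 (lmFit and trended eBayes; Benjamini-Hochberg, threshold 0.05) on log2 values and checked on simulated data. P-values measure the spread between these arrays. Named genes were the 14 largest rises and falls without overlap, 2 per list, the 4 furthest apart between array sets, and LBD16, PUCHI, EXPA7, EXPA18, MT1C, HTB2, HTB4, AUR1, BUB3.1, PRL, ATG8E and WAG2. Genes with a symbol were added after their values were seen, as were other list members named in the text. The arrays, lists and rules were chosen with earlier results of these data known. The patterns and loci listed for dirigent, lipid transfer and arabinogalactan proteins, aquaporins, auxin transport, endodermis, vasculature, ribosomal proteins and receptor-like kinases matched no named probe set, although other genes of such families were tested (PGY1, B120, GSO1); the stem cell list had no tested gene. Alternatives were quantile normalization, other filters, a pseudocount, robust eBayes, the title number as a block, control signals as terms and array subsets; scanner, station, interaction, poly-A and control-level settings were chosen after seeing the data.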

Additional observations from a re-analysis of the deposited data

Results flagged for a closer look

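Single arrays stood apart within their region for some genes. Each value below was the highest or lowest of its region by a gap that exceeds the 95% critical value of Dixon's ratio. Of 260 groups examined (122 genes and 8 array measures in 2 regions), 34 gave such a value, and chance gives about 1 in 20 groups. OZ1-31 held 10, OZ2-10 held 7, OZ2-9 held 5 and OZ1-9 held 4 of the 34. Values are log2 signals and lowest in their region unless stated otherwise, and what sets these arrays apart was not tested.

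On OZ1-31 the low values were 10.27 for AT1G54890, 11.44 for HTB4, 3.48 for ATG8H, 3.97 for AT1G61840, 4.18 for WAG2, 4.55 for PSBY, 4.79 for NQR, a quinone reductase, 4.67 for LigB and 9.70 for ATSTE24, a protease. Its upper quartile of signal, 331, was the highest of OZ1. On OZ1-9 EXPA18 was highest of its region at 9.45, while AT5G50740 read 8.34, HTB1 9.57 and STZ, a zinc finger factor of stress responses, 2.93. The remaining OZ1 values were 1.22 for LBD16 and 1.41 for ATG8E on OZ1-4, 3.11 for AT1G30750 and 4.45 for scpl48 on OZ1-32, and 1.52 for XTH32 on OZ1-33.

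OZ2-10 was lowest for the root hair expansins EXPA7 (7.23) and EXPA18 (7.62), for AT3G18170 (7.10), CYP71B29 (3.65) and GSTU28 (4.20), and also for TBL39 (7.27) and DRT100 (5.99), which were lower in OZ2 as a whole. On OZ2-9 the poly-A controls were the highest of OZ2 at a mean log2 of 14.89, and PSAE-1 was highest at 10.85, while PMEPCRF read 6.21, COR47 10.47 and SP1L3 7.09. OZ2-22 read 3.61 for LBD16, 5.56 for LSM1B and 3.90 for CuAO1.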

How the results depend on the processing

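The kept arrays' counts rest on which arrays are left out. With all 22 arrays of the first day 0 probe sets were higher and 1 lower without overlap, and 1489 and 1408 were at least 2-fold higher and lower. Leaving out arrays with over 5% of their signal in hybridisation controls (8 and 5 arrays remained), 898 and 1052 did not overlap, fewer arrays making this easier. At least 2-fold higher were 5100 probe sets with no filter and 1370 with the 60th percentile filter. Over 9 settings 4 differences of named genes on the kept arrays changed sign, all in genes that overlapped: PRP39 from -0.48 to 0.20 with all 22 arrays, and, on the shared scanner alone, AT3G51720 to -1.14, PUCHI to -0.84 and WAG2 to 1.13.

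On the other scan days the poly-A term, hybridisation term, quantile normalization, filters, pseudocount and robust eBayes kept both counts within 1.5 times; without OZ1 replicate 3, which lay nearer OZ2, they were 2072 and 2208. On the 22 arrays of the first day quantile normalization gave 205 higher, the hybridisation term 80 and 156, the station as a random block 140 and 221, the poly-A term 0 and 0, the scanner block 0 and 0, and leaving out arrays of high hybridisation controls 668 and 867. As described above, the poly-A term on the other days mainly set a few arrays of high poly-A signal apart. Its small effect there therefore does not bear on the first day. The causes were not tested.

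The title number as a replicate block gave 1213 higher and 1078 lower on the other days and 798 and 978 on the 22 arrays. Deviations of same-numbered kept arrays correlated at -0.23 to 0.20 over 6 numbers, not above 0.1 for each, so the numbers are not taken to pair the arrays, and not every array correlated best with its own number.

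Of the named genes, 11 tested values changed sign. On the other days these were XTH19 at -0.18 and CSLA03 at -0.019 (replicate block), ZIP9 at 0.013 (without high hybridisation controls) and PRXR1 at 0.0045 (without OZ1 replicate 3). On the 22 arrays they were WAG2 at 0.20 (poly-A term), PRXR1 at 0.0082 and PRP39 at -0.46 (without high hybridisation controls), and PRP39 at -1.28, AT3G51720 at -1.14, PUCHI at -0.84 and WAG2 at 1.13 (scanner block).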
